A study of Arabidopsis thaliana with 31 samples.

Results

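The mitochondrial genome transcripts are the table rows whose gene identifier begins with ATMG and whose value was above 0 in at least 2 libraries of their table. Members were thus chosen by being above 0 in the deposited levels. Of 152 such identifiers among 32833 rows, 131 met this rule in experiment A and 121 in experiment B, and 114 met it in both. Just inside it, 7 rows in A and 19 rows in B were above 0 in exactly 2 libraries, with values of 0.091 to 0.721 in A and 0.165 to 4.32 in B. Just outside it, 6 rows in A and 17 rows in B were above 0 in 1 library, with values of 0.063 to 0.427 and 0.147 to 8.63.

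The plant mitochondrial genome encodes some subunits of the respiratory complexes and of the ATP synthase, proteins that mature cytochrome c, some ribosomal proteins, and the ribosomal and some transfer RNAs. All other mitochondrial proteins, including the RNA polymerases that transcribe this genome and the factors that edit, splice and trim its transcripts, are encoded in the nucleus. Stable mitochondrial transcripts in plants mostly lack long poly(A) tails, and Arabidopsis Col-0 carries a large copy of mitochondrial DNA near the centromere of chromosome 2, so reads from the genome and from its nuclear copy can be hard to tell apart.

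The material was whole Arabidopsis thaliana seedlings at 12 days after germination, grown on soil in long days, with total RNA sequenced in 31 libraries. Experiment A held the wild type Col-0 (n = 2), gcn5-7 (n = 3), arp6-1 (n = 3) and the gcn5-7 arp6-1 double mutant (n = 3). Experiment B held 5 libraries each of Col-0, gcn5-7, nrp1-1 nrp2-2, and a triple mutant with all 3 alleles, gcn5-7 nrp1-1 nrp2-2. GCN5 acetylates histones, NRP1 and NRP2 chaperone them, and ARP6 belongs to the SWR1 complex, which exchanges H2A for H2A.Z. The labels do not say where each mutation lies or whether replicates came from separate plantings, so p-values measure the spread between these libraries, which may be technical.

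The targeted genes were read first. ARP6 was at 27.2 ± 12.6 in Col-0 of A (SD, n = 2) against 0.214 ± 0.133 in arp6-1 (n = 3) and 0.514 ± 0.244 in the double mutant (n = 3). NRP2 was at 11.8 ± 2.37 in Col-0 of B (n = 5) against 0.208 ± 0.195 in nrp1-1 nrp2-2 and 0 in all 5 triple mutant libraries, and NRP1 was at 27.8 ± 4.68 against 6.91 ± 2.01 and 11.3 ± 1.37. GCN5, listed as HAG1, was at 6.74 ± 1.05 in Col-0 and 8.39 ± 3.05 in gcn5-7 of A, and at 5.61 ± 1.45 and 4.44 ± 1.34 in B. Its transcript was not called lower in any gcn5-7 comparison, so it does not check that label, and the genotype names used here are those of the labels. Leaf markers were high in every group, while of 5 root markers only PYK10 reached the level needed for a test. The highest group mean of any other root marker was 0.796 (CASP1, nrp1-1 nrp2-2), and EXPA7 was at 0 in every library of A. Over nuclear genes of annotated length, libraries of A held 38.4 to 39.6 M recovered reads each, and those of B held 10.4 to 16.8 M.

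Values are TPM that the authors scaled between libraries by TMM, a level per length. Mitochondrial rows were rare, with 412 to 4142 recovered reads per library in A and 189 to 2190 in B. These reads cover only the 108 of 152 rows with a recovered length. They leave out ATMG00020, which was above 0 in all 31 libraries. The median member had a mean of 0.251 in A and 0.199 in B. Only 25 members in A and 21 in B reached a table mean of 1, the limit for a test, and the counts of calls below cover those alone. A member that reached it only through a group where it is high had to differ, so these counts describe the tested members and are not evidence about all members.

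Identities were limited. Of the 152 rows, 53 are named in RefSeq notes on nuclear copies, and 29 could be given a role, 16 from such a note and 13 from a prepared list of roles where the counted length equals that of an annotated mitochondrial gene of RefSeq's TAIR10.1. All other rows are given by identifier. No mitochondrial coordinates are given, because the mitochondrial sequence in that annotation is not the one the authors used.

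The gcn5-7 arp6-1 double mutant and both genotypes that carry nrp1-1 nrp2-2 had a smaller mean share of mitochondrial transcripts than the other groups of their experiment, while gcn5-7 and arp6-1 alone overlapped with Col-0. In A the share of the column sum was 0.0599 and 0.0564% in Col-0. It was 0.102, 0.0560 and 0.0609% in gcn5-7 and 0.0618, 0.0257 and 0.0386% in arp6-1. It was 0.0107, 0.00599 and 0.0170% in the double mutant, below every other library of A.

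In B the share was 0.0590, 0.0637, 0.0368, 0.0314 and 0.0369% in Col-0, and 0.0572, 0.0486, 0.0269, 0.0360 and 0.0302% in gcn5-7. It was 0.0256, 0.00983, 0.00766, 0.00529 and 0.00563% in nrp1-1 nrp2-2, and 0.0291, 0.0267, 0.0121, 0.00878 and 0.00764% in the triple mutant. All nrp1-1 nrp2-2 libraries lay below all Col-0 and gcn5-7 libraries, and all triple mutant libraries lay below all Col-0 libraries. Replicate 1 of the triple mutant lay above replicate 3 of gcn5-7, so those groups overlapped. In these bulk samples, fewer mitochondria-rich cells and less mitochondrial RNA per cell cannot be told apart.

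**Figure D1:**
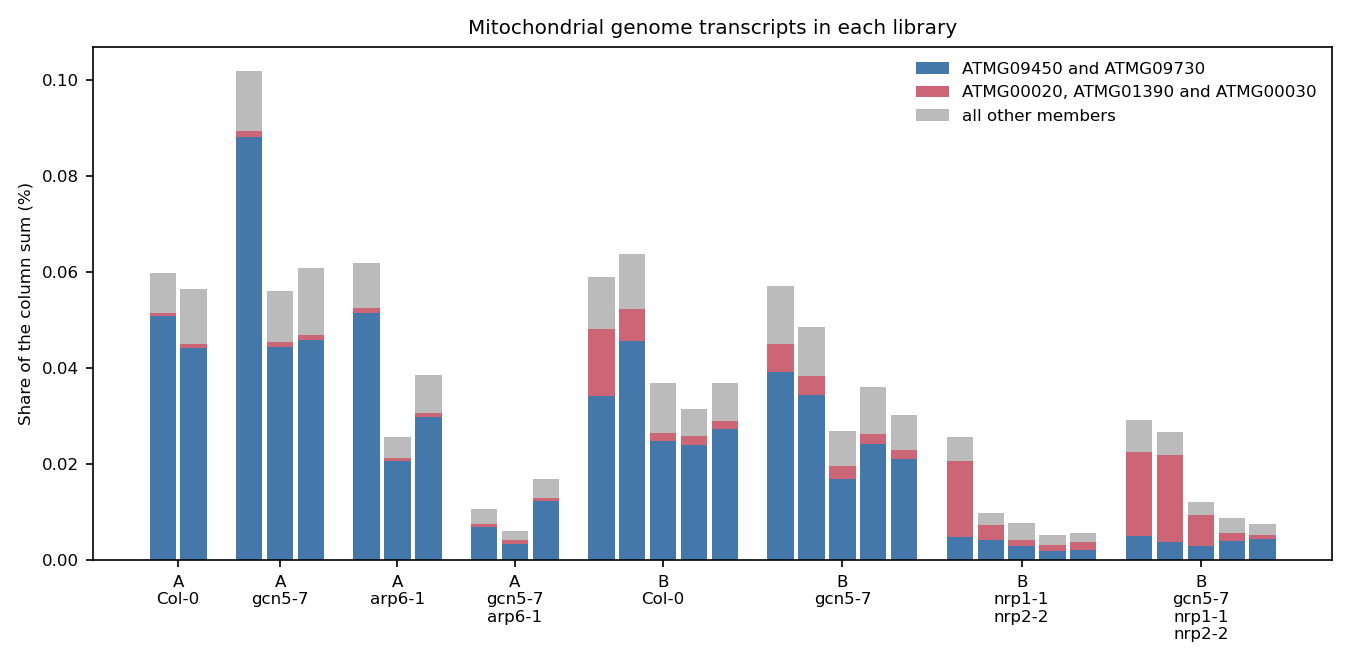
Share of the column sum (%) held by mitochondrial genome transcripts, 1 stacked bar per library in replicate order within each group of experiments A and B. Blue is ATMG09450 and ATMG09730, red is ATMG00020, ATMG01390 and ATMG00030, and grey is all other members. The blue part is short in every library of the A double mutant and of both B genotypes with nrp1-1 nrp2-2, and the red part is taller in B replicates 1 and 2 than in replicates 3 to 5 of the same group.

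As group means, the share in the A double mutant was 0.0112 ± 0.00552% (SD, n = 3) against 0.0582 ± 0.00245% in Col-0 (n = 2), a ratio of 0.193 ± 0.0953. The ratio was 0.154 ± 0.0925 against gcn5-7 and 0.267 ± 0.175 against arp6-1. In B it was 0.237 ± 0.201 for nrp1-1 nrp2-2 and 0.370 ± 0.254 for the triple mutant against Col-0. For gcn5-7 against Col-0 the ratio was 1.25 ± 0.435 in A and 0.872 ± 0.397 in B, and for arp6-1 it was 0.723 ± 0.316. The ± on each ratio combines the SDs of both groups and is not an error of the ratio. These ratios are descriptions with no test.

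Most of the share came from 2 rows. ATMG09450 and ATMG09730 were each counted over 80 bases and have no annotation in the sources used here. They made up 81.7 ± 4.62% of the summed mitochondrial level in Col-0 of A (n = 2) and 69.4 ± 7.26% in Col-0 of B (n = 5), but 35.5 ± 9.66% in nrp1-1 nrp2-2. A level per length gives short rows much weight. Of the recovered mitochondrial reads, which leave out ATMG00020, the pair held 37.2 to 52.5% in Col-0 of A. In Col-0 of B it held 16.2 to 30.6%.

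Read counts leave out ATMG00020 and the other rows without a recovered length. Counted in recovered reads per M nuclear reads, the group means were 65.3 ± 2.84 in Col-0 and 15.6 ± 5.41 in the double mutant of A. In B they were 76.1 ± 40.0 in Col-0, 64.7 ± 17.7 in gcn5-7, 65.4 ± 55.1 in the triple mutant and 36.7 ± 37.3 in nrp1-1 nrp2-2. On this scale the double mutant libraries were again the lowest of A, and the groups of B overlapped. As reads, the triple mutant's ratio to Col-0 was 0.859, and that of nrp1-1 nrp2-2 was 0.483, a measure added after the values were seen. Without the pair of 80-base rows the share ratios were 0.890 and 0.524. Members other than that pair and ATMG00020, ATMG01390 and ATMG00030 had ratios of 0.420 and 0.323.

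ATMG09450 stood at 263, 339, 128, 130 and 142 in the 5 Col-0 libraries of B and at 167, 179, 78.1, 112 and 92.0 in gcn5-7. It stood at 38.5, 46.1, 17.1, 9.30 and 14.2 in nrp1-1 nrp2-2 and at 27.7, 28.1, 15.0, 17.0 and 23.0 in the triple mutant. Every library with nrp1-1 nrp2-2 was below every library without it. The log2 fold change against Col-0 was -3.07 (SE 0.384, adjusted p = 0.000292, limma over all genes tested) in nrp1-1 nrp2-2 and -3.04 (SE 0.384, adjusted p = 0.000144) in the triple mutant.

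In A, ATMG09450 stood at 563 and 221 in Col-0, at 758, 201 and 220 in gcn5-7, at 656, 141 and 171 in arp6-1, and at 31.0, 16.2 and 54.2 in the double mutant. The double mutant libraries were the lowest of A. The fall was called against gcn5-7 (log2 -3.38, SE 0.736, adjusted p = 0.0155) and against arp6-1 (log2 -3.02, SE 0.736, adjusted p = 0.0257). Against Col-0 the log2 fold change was -3.50 with an adjusted p of 0.0579. In Col-0, gcn5-7 and arp6-1 replicate 1 was the highest library, and those 3 libraries also had the highest column sums of A. No label names a batch for these 3 libraries, and a term for them was chosen with earlier results of these data known. With that term the fall was log2 -2.78 (SE 0.364, adjusted p = 0.000358) against gcn5-7 and -2.42 (SE 0.364, adjusted p = 0.000549) against arp6-1.

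ATMG09730 followed the same order of groups. It stood at 186, 206, 83.0, 87.6 and 104 in Col-0 of B and at 108, 104, 47.1, 83.2 and 67.2 in gcn5-7. In nrp1-1 nrp2-2 it stood at 25.0, 30.7, 10.9, 8.37 and 7.74, and in the triple mutant at 21.0, 19.3, 8.20, 15.1 and 17.0. Its log2 fold change against Col-0 was -3.04 (SE 0.372, adjusted p = 0.000238) and -2.92 (SE 0.372, adjusted p = 0.000148).

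In A, ATMG09730 ran from 140 to 348 in Col-0, from 130 to 465.96 in gcn5-7, from 86.5 to 414 in arp6-1 and from 9.64 to 33.7 in the double mutant. Its fall in the double mutant was called against gcn5-7 (log2 -3.41, SE 0.729, adjusted p = 0.0143) and arp6-1 (log2 -3.05, SE 0.729, adjusted p = 0.0244), and not against Col-0 (log2 -3.53, SE 0.815, adjusted p = 0.0548).

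Among the ATP synthase rows, ATMG01080, whose RefSeq note names subunit 9 of the membrane part of the enzyme, was called lower in 6 comparisons, more than any other row. It stood at 8.35, 7.52, 4.55, 4.46 and 3.56 in Col-0 of B and at 3.02, 3.77, 3.63, 3.45 and 4.92 in gcn5-7. It stood at 0.916, 0.696, 0.741, 0.295 and 0.409 in nrp1-1 nrp2-2 and at 1.58, 1.12, 1.302, 0.450 and 0.951 in the triple mutant. The nrp1-1 nrp2-2 and triple mutant libraries were all below all others, with log2 fold changes against Col-0 of -2.01 (SE 0.214, adjusted p = 3.3e-05) and -1.65 (SE 0.214, adjusted p = 0.000162).

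In A, ATMG01080 stood at 7.62 and 5.51 in Col-0, at 8.39, 4.59 and 3.69 in gcn5-7, at 4.48, 2.26 and 3.06 in arp6-1, and at 0.515, 0.490 and 0.698 in the double mutant. The fall in the double mutant was called against Col-0 (log2 -2.26, SE 0.384, adjusted p = 0.0215), gcn5-7 (group means 0.568 against 5.56, adjusted p = 0.00584) and arp6-1 (log2 -1.42, SE 0.343, adjusted p = 0.0249). Its nuclear copy AT2G07671 moved with it: the copy was at 4.85 ± 1.27 in Col-0 of B, 0.808 ± 0.310 in the triple mutant and 0.391 ± 0.286 in nrp1-1 nrp2-2 (n = 5 each). How reads that fit both were shared out is not given in the sources used here, so the rows cannot be told apart.

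ATMG00480, named for subunit 8 of the ATP synthase, stood at 6.82 and 2.88 in Col-0 of A and at 0.121, 0.129 and 0.246 in the double mutant. It was called lower there (log2 -2.24, SE 0.504, adjusted p = 0.0495). It stood at 5.58, 1.58 and 2.86 in gcn5-7, against which the double mutant was also called lower (log2 -1.79, SE 0.451, adjusted p = 0.0270).

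ATMG00590 was the member with calls in both directions. The RefSeq note on its nuclear copy AT2G07718 reads cytochrome b/b6 protein. It stood at 2.23, 3.77, 1.92, 0.477 and 1.36 in Col-0 of B and at 3.88, 9.35, 4.35, 4.58 and 2.99 in gcn5-7, and was called higher in gcn5-7 (log2 1.05, SE 0.270, adjusted p = 0.00928). The row reached the limit for a test in B only through gcn5-7, so no conclusion is drawn from its B calls that involve gcn5-7 alone. In nrp1-1 nrp2-2 it was at 0, 0, 0.132, 0 and 0, which is 1 recovered read in all, and in the triple mutant at 0.564, 0, 0, 0 and 0.254.

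Both falls of ATMG00590 against Col-0 were called, with log2 values of -1.42 (SE 0.270, adjusted p = 0.0168) and -1.26 (SE 0.270, adjusted p = 0.0121). With 1 library left out, the nrp1-1 nrp2-2 call was lost in 3 of 10 fits and the triple mutant call in 0 of 10. Against gcn5-7, the group through which the row was tested, the triple mutant's fall was log2 -2.32 (SE 0.270, adjusted p = 8.48e-05). Values near 0 make these fold changes on the log2(value + 1) scale smaller than a ratio would be. The nuclear copy AT2G07718 was also highest in gcn5-7 and lowest in the genotypes with nrp1-1 nrp2-2. Its means were 0.821 ± 0.287 in Col-0, 1.54 ± 0.524 in gcn5-7, 0.481 ± 0.240 in the triple mutant and 0.554 ± 0.366 in nrp1-1 nrp2-2. The means of ATMG00590 were 0.164 in the triple mutant and 0.0264 in nrp1-1 nrp2-2. In A, ATMG00590 stood at 3.68 and 1.99 in Col-0, at 6.90, 3.74 and 4.01 in gcn5-7, at 1.94, 1.29 and 1.12 in arp6-1 and at 0.705, 0.819 and 1.65 in the double mutant. The double mutant overlapped with arp6-1 and was called lower against gcn5-7 alone of the 3 groups (log2 -1.50, SE 0.327, adjusted p = 0.0150).

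**Figure D2:**
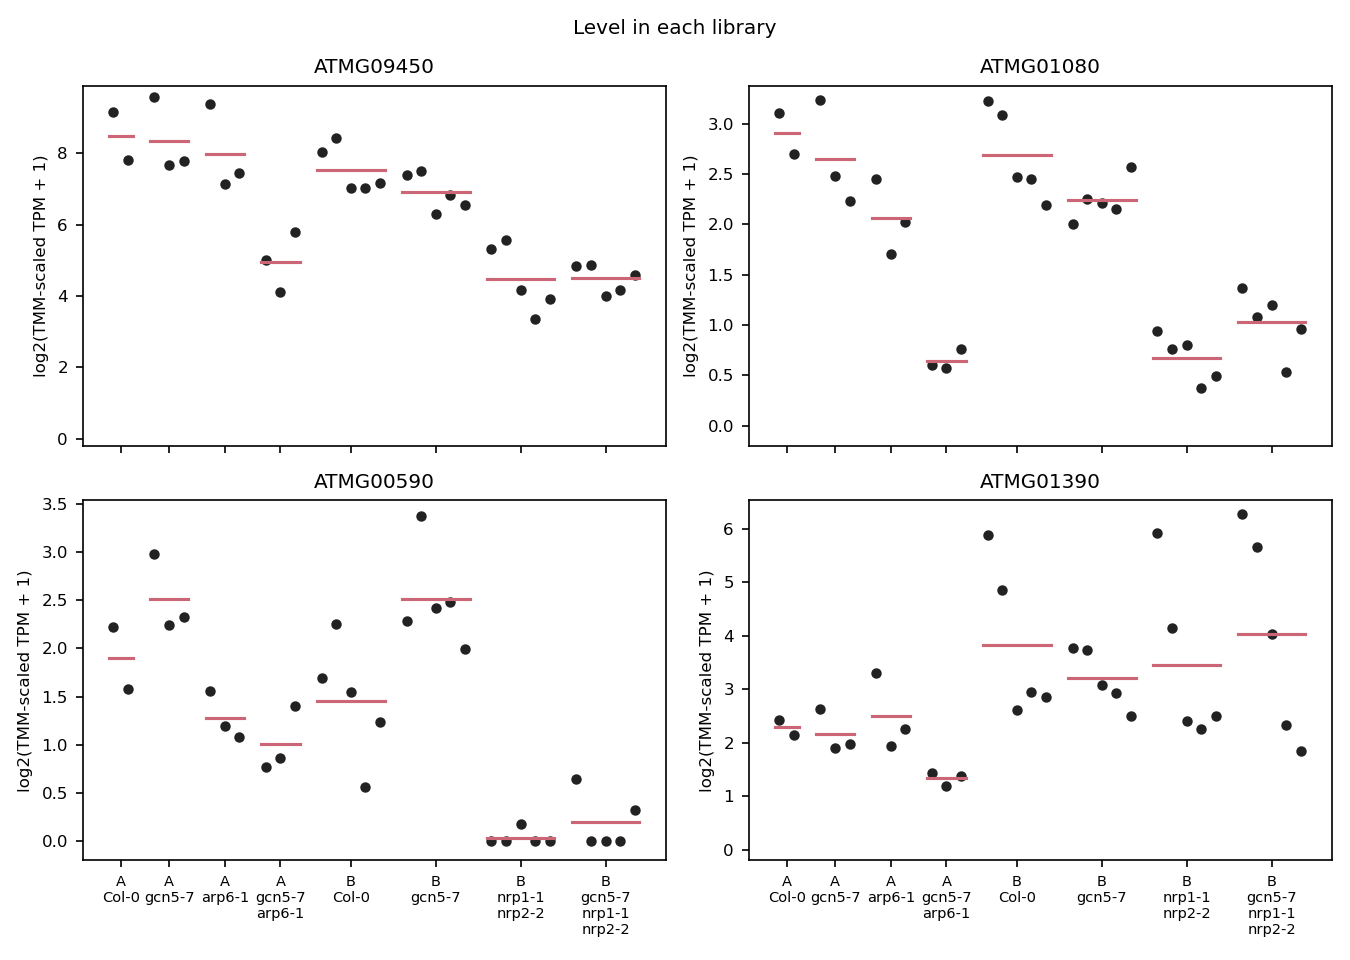
Level on the log2(TMM-scaled TPM + 1) scale of ATMG09450, ATMG01080 (ATP synthase subunit 9), ATMG00590 and ATMG01390 in each library, with a red line at each group mean. ATMG09450 and ATMG01080 are low in every library with nrp1-1 nrp2-2, ATMG00590 is between 0 and 0.564 TMM-scaled TPM there, and ATMG01390 is high in libraries numbered 1 and 2 of B.

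Other rows fell as well, and several were short. ATMG00780, counted over 88 bases, stood at 9.19, 12.1, 9.60, 3.06 and 3.89 in Col-0 of B, and at 1.75, 0, 0, 0 and 1.17 in nrp1-1 nrp2-2. It was called lower in nrp1-1 nrp2-2 (log2 -2.44, SE 0.417, adjusted p = 0.00866), in the triple mutant (log2 -2.64, SE 0.417, adjusted p = 0.000988) and in gcn5-7 (log2 -1.26, SE 0.417, adjusted p = 0.0327). The counts behind it were small, at 3 to 9 reads per Col-0 library. With 1 library left out, the gcn5-7 call was lost in 5 of 10 fits. The nrp1-1 nrp2-2 and triple mutant calls were lost in 0 of 10 each.

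ATMG00330, also counted over 88 bases, stood at 18.4, 21.5, 13.7, 4.08 and 4.86 in Col-0 of B and at 3.02, 0, 0, 0 and 0 in the triple mutant. It was called lower in the triple mutant (log2 -3.11, SE 0.626, adjusted p = 0.00746) and in gcn5-7 (log2 -2.07, SE 0.626, adjusted p = 0.0219). With 1 library left out, the gcn5-7 call was lost in 3 of 10 fits and the triple mutant call in 0 of 10. ATMG01370, counted over 336 bases, stood at 4.33, 5.99, 0.718, 1.60 and 4.07 in Col-0 and at 0, 0, 0, 0.676 and 1.19 in the triple mutant (log2 -1.57, SE 0.345, adjusted p = 0.0143).

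ATMG01370 stood in A at 10.3 and 8.35 in Col-0, at 14.4, 5.61 and 6.22 in gcn5-7, at 15.1, 4.38 and 6.26 in arp6-1, and at 2.15, 0.735 and 1.66 in the double mutant. It was called lower against gcn5-7 (log2 -1.89, SE 0.485, adjusted p = 0.0289) and against arp6-1 (log2 -1.81, SE 0.485, adjusted p = 0.0351). ATMG01220 was lower in the double mutant of A as well. It stood at 2.18 and 1.92 in Col-0 and at 0.253, 0.0900 and 0.428 in the double mutant (log2 -1.29, SE 0.286, adjusted p = 0.0469). ATMG00665, counted over 22 bases, stood at 13.9, 6.11 and 13.2 in gcn5-7 and at 0, 0 and 4.00 in the double mutant (log2 -2.74, SE 0.662, adjusted p = 0.0230).

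ATMG01170 stood at 3.21, 1.54 and 1.68 in gcn5-7 of A, at 3.26, 1.09 and 1.76 in arp6-1, and from 0.245 to 0.254 in the 3 double mutant libraries. It was called lower against gcn5-7 (log2 -1.29, SE 0.327, adjusted p = 0.0274) and arp6-1 (log2 -1.22, SE 0.327, adjusted p = 0.0357). ATMG00660 stood at 9.20, 5.62 and 4.39 in gcn5-7 and at 1.15, 1.17 and 1.56 in the double mutant, and was called lower there (log2 -1.64, SE 0.357, adjusted p = 0.0150). Its arp6-1 values ran from 1.68 to 4.47, and the double mutant was not called against them.

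A different pattern was seen in ATMG01390, ATMG00020 and ATMG00030. ATMG01390, whose counted length equals that of rrn18, the small-subunit ribosomal RNA, stood at 58.5, 28.0, 5.11, 6.73 and 6.27 in Col-0 of B. It stood at 12.6, 12.3, 7.46, 6.65 and 4.66 in gcn5-7, at 59.8, 16.7, 4.31, 3.77 and 4.64 in nrp1-1 nrp2-2, and at 76.9, 49.6, 15.4, 4.03 and 2.60 in the triple mutant. In each group the libraries numbered 1 and 2 were the highest, and no genotype comparison of B called the row.

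ATMG00020, for which no length could be recovered, and ATMG00030, of 324 bases, were likewise highest in the libraries numbered 1 and 2. The grouping of these 3 rows was made after their values were seen. Together the 3 rows held 0.00662 to 0.0140% of the column sum in replicates 1 and 2 of Col-0 and 0.00163 to 0.00197% in replicates 3 to 5. In the triple mutant the ranges were 0.0175 to 0.0180% and 0.000894 to 0.00647%. The chloroplast share moved with them, at 0.386 to 0.669% in replicates 1 and 2 of Col-0 against 0.0998 to 0.173% in replicates 3 to 5, and its part in the result was not tested.

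ATMG01380, whose counted length equals that of rrn5, was called in B. It reached the limit for a test there only through Col-0, so no conclusion is drawn from its calls. It stood at 17.8, 1.00, 8.18, 2.28 and 1.45 in Col-0 and at 0.860, 0, 0, 1.28 and 0 in gcn5-7 (log2 -1.87, SE 0.467, adjusted p = 0.00779). In nrp1-1 nrp2-2 it was above 0 in 1 library, at 0.874, and was not called. In the triple mutant it stood at 0, 0, 0, 0.641 and 0.677 (log2 -1.997, SE 0.467, adjusted p = 0.0220). Col-0 and gcn5-7 overlapped, with 1 to 13 reads per Col-0 library. The triple mutant call was lost in 3 of the 9 fits with 1 library left out that tested the row.

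**Figure D3:**
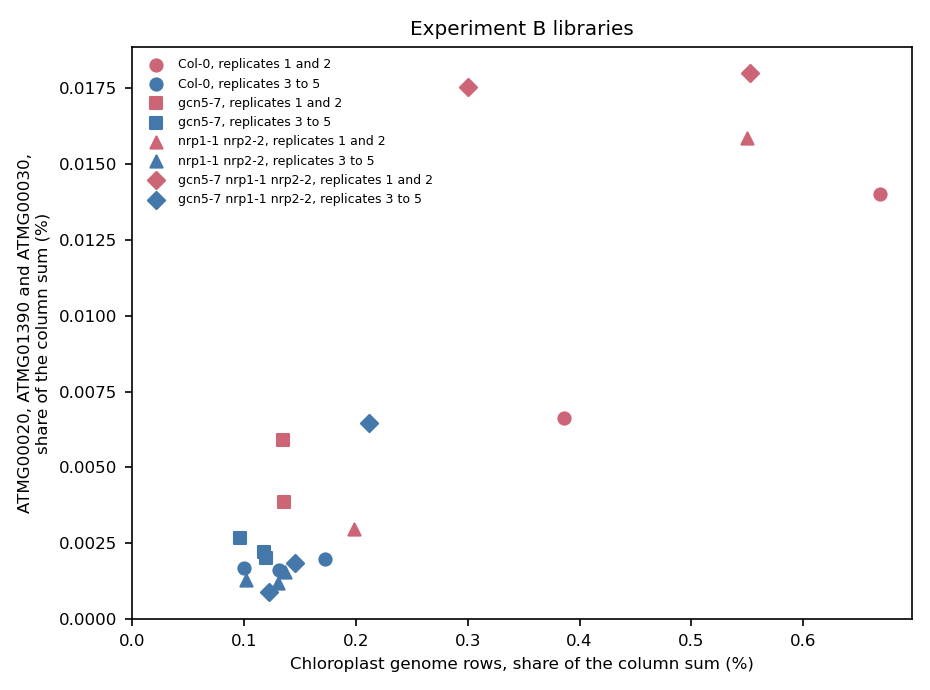
Share of the column sum (%) of ATMG00020, ATMG01390 and ATMG00030 against that of the chloroplast genome rows, 1 point per library of experiment B, with marker shape for genotype and red for replicates 1 and 2. Points high on both axes are all red.

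The respiratory and translation rows were low. ATMG00650, of the length of nad4L of complex I, stood at 0.880 and 1.13 in Col-0 of A, at 2.16, 2.04 and 2.68 in gcn5-7 and at 0.0950, 0.102 and 0.580 in the double mutant. The double mutant was called lower than gcn5-7 (log2 -1.40, SE 0.232, adjusted p = 0.00489). The row, with an A mean of 1.14, reached the limit for a test there only through gcn5-7, so no conclusion is drawn from this call. In B it ran from 0.564 to 4.81 in Col-0 and from 0 to 2.03 in nrp1-1 nrp2-2, and no comparison called it.

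ATMG00160, of the length of cox2 of complex IV, stood at 3.40, 2.03 and 2.04 in gcn5-7 of A and at 0.553, 0.276 and 0.487 in the double mutant (log2 -1.26, SE 0.370, adjusted p = 0.0469). In B it ran from 0.462 to 1.65 in Col-0 and from 0.264 to 1.77 in nrp1-1 nrp2-2. ATMG00180, named for cytochrome c biogenesis, ran from 0.440 to 3.31 in Col-0 of B and from 0.0760 to 0.566 in nrp1-1 nrp2-2, and its B mean was under the limit for a test. ATMG00220, apocytochrome b of complex III, ran from 0 to 0.601 in Col-0 of B, and ATMG00210, ribosomal protein L5, from 0 to 1.45. Neither reached the limit for a test in A or B.

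Counted over the tested members, nearly all calls were falls. In A, 3 of 25 fell in the double mutant against Col-0, where 2.06% of all genes tested were called, 1.69% higher and 0.377% lower. All 25 log2 fold changes were below 0, with a median of -1.33 against 0.18 over all genes. Against gcn5-7, 12 of 25 fell (13.7% of all genes called, 9.79% higher and 3.88% lower), and against arp6-1, 7 of 25 fell (14.8% called, 11.9% higher and 2.96% lower). No tested member was called higher in these 3 comparisons. The 12 against gcn5-7 include ATMG00650, which was tested only through gcn5-7, so no conclusion is drawn from that call. With a correction for gene length the counts were 2, 5 and 2 of 25, where 1.76, 15.0 and 7.05% of all genes were called, and the medians were -0.49, -0.78 and -0.08. With a term for replicate 1 of Col-0, gcn5-7 and arp6-1 in place of that correction, 14, 17 and 19 fell and 0 rose, where 13.7, 40.6 and 46.2% of all genes were called.

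In A, 0 of 25 were called in gcn5-7 against Col-0, where limma called 0.142% of all genes (0.071% higher and 0.071% lower) and 1 member had an unadjusted p under 0.05. In arp6-1 against Col-0, limma called 0 members and 0.0164% of all genes, all of them lower, and 0 had an unadjusted p under 0.05. The test of whether the double mutant departed from the sum of the single mutants' changes called 0 of 25 with limma (1.38% of all genes, 1.26% higher and 0.12% lower), while 9 had a p under 0.05 before adjustment and all 25 values were below 0. The call thus depended on the fit: with the term for replicate 1 of the 3 groups, 14 of 25 were called, all below 0, as were 36.0% of all genes in either direction.

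In B, 5 of 21 fell in nrp1-1 nrp2-2 against Col-0, where 0.39% of all genes were called, 0.297% higher and 0.0923% lower. In the triple mutant 8 of 21 fell (2.43% called, 1.28% higher and 1.15% lower). The median log2 fold change was -0.83 and -0.86, against -0.05 and 0.03 over all genes. Both comparisons share the Col-0 libraries. The 8 include ATMG01380, which was tested only through Col-0, so no conclusion is drawn from that call. In gcn5-7 against Col-0, 1 of 21 rose and 3 fell, where 26.2% of all genes were called, 11.6% higher and 14.7% lower. The rise was ATMG00590, tested only through gcn5-7, and the falls include ATMG01380, tested only through Col-0. The count for gcn5-7 was 1 without replicate 1 of Col-0 and 2 without replicate 2 of Col-0.

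Against gcn5-7, 5 of 21 fell in the triple mutant (3.21% of all genes called, 2.08% higher and 1.14% lower). Those 5 include ATMG00590, tested only through gcn5-7. With the replicate number as a block 8 fell and 1 rose, where 25.4% of all genes were called. Against nrp1-1 nrp2-2, limma called 0 of 21 in the triple mutant (0.713% of all genes, 0.103% higher and 0.61% lower), while 0 had a p under 0.05 before adjustment. The interaction of gcn5-7 with nrp1-1 nrp2-2 called 0 of 21 with limma (0.041% of all genes, 0.0205% higher and 0.0205% lower), while 3 had a p under 0.05 before adjustment.

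**Figure D4:**
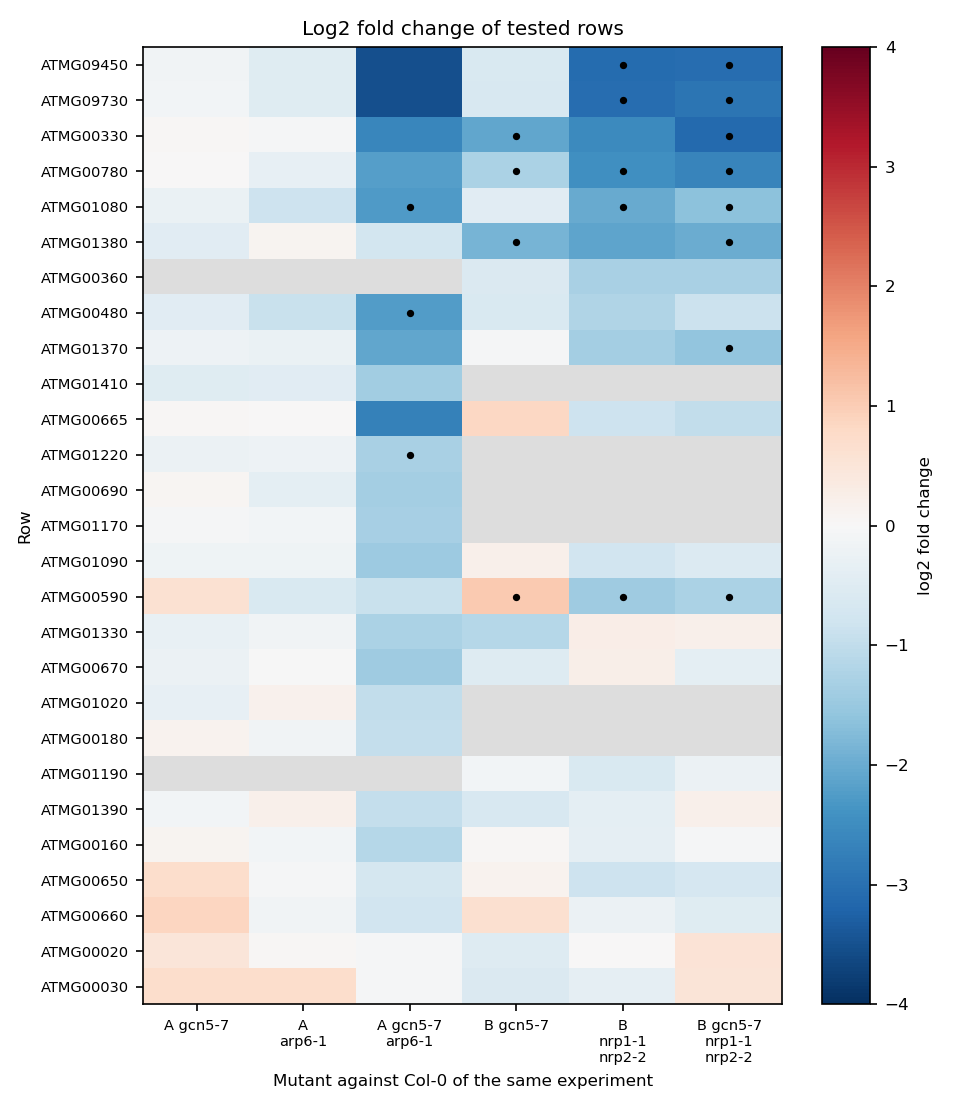
Log2 fold change against Col-0 of the same experiment for each row tested in A or B, with grey where a row was not tested and a black dot where limma called it. The A double mutant column is blue or near white throughout, and the dots of the nrp1-1 nrp2-2 column are all on blue cells.

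Within replicates 3 to 5 of B, where ATMG01390, ATMG00020 and ATMG00030 were mostly low, 17 members were tested. Of these, 3 fell in nrp1-1 nrp2-2 against Col-0 and 5 in the triple mutant, where 0.457 and 2.65% of all genes were called, and the share ratios were 0.177 and 0.271. In gcn5-7 against Col-0, 1 was called, a rise, where 12.0% of all genes were called. In A the count for the double mutant against Col-0 was 0 without replicate 1 of Col-0, where 0.0927% of all genes were called, and 16 without replicate 2 of Col-0, where 39.3% were. It was 0 without any 1 of the double mutant libraries, where 0.0934 to 0.706% of all genes were called. Against gcn5-7 it was 2 without replicate 1 of gcn5-7, and 4, 2 and 6 without double mutant replicates 1, 2 and 3. The share of all genes called in those fits was 4.70, 6.56, 2.27 and 3.72%, in that order. Against arp6-1 it was 0 and 2 without arp6-1 replicates 1 and 2, and 0, 0 and 1 without the double mutant replicates in order. The share of all genes called was 3.57, 3.15, 4.99, 1.72 and 2.34%, in that order. Of the calls made in A, that of ATMG01080 against gcn5-7 held in all 6 such fits. That of ATMG00650 against gcn5-7 held in the 5 that tested it, but the row reached the limit for a test only through gcn5-7. Each other call was lost in at least 2.

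The nuclear rows of the chromosome 2 interval that holds the mitochondrial insertion, which also includes ordinary nuclear genes, were set beside the members. Of 12 tested in A, 1 fell in the double mutant against Col-0, where 0.377% of all genes were called lower. Against gcn5-7, 3 fell and 1 rose, and against arp6-1, 2 fell and 1 rose, where 3.88 and 2.96% were called lower. Of 11 tested in B, the triple mutant had 3 falls against Col-0 and nrp1-1 nrp2-2 had 2, where 1.15 and 0.0923% were called lower. AT2G07671 was among the falls in each of the comparisons with Col-0 named here.

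Nuclear genes for mitochondrial transcription, RNA processing and genome upkeep were counted from the same fit, and those named were chosen after their values were seen. Of 28 tested in B, 6 rose and 0 fell in gcn5-7, where 11.6% of all genes were called higher, and 7 rose and 0 fell in the triple mutant, where 1.28% were called higher. MORF1, an RNA editing factor, rose in nrp1-1 nrp2-2 from 10.3 to 22.1 (log2 1.04, SE 0.186, adjusted p = 0.0116) and to 28.9 in the triple mutant (log2 1.42, SE 0.186, adjusted p = 0.000172). PMH1, an RNA helicase of mitochondria, rose from 7.98 to 28.3 in the triple mutant (log2 1.71, SE 0.263, adjusted p = 0.000773). These values are group means of 5 libraries.

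In A, 3 of 27 such genes rose in the double mutant against gcn5-7, near the 9.79% of all genes called higher. Against arp6-1, 3 rose and 1 fell, near the 11.9% called higher and 2.96% called lower. Of 27 nuclear-encoded respiratory subunits, limma called 0 in each comparison, and the count at an unadjusted p under 0.05 was highest, at 10, in the A double mutant against arp6-1.

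Leaf markers moved in gcn5-7 of B, where 3 of 4 fell, against 14.7% of all genes called lower, and the summed level ran from 15156 to 39613 against 48022 to 88495 in Col-0. In nrp1-1 nrp2-2, 0 of 4 were called by limma and the sum ran from 46164 to 164570. The root marker PYK10 rose in gcn5-7 of B from 48.0 ± 11.3 to 120.4 ± 51.4 (n = 5 each, log2 1.25, SE 0.305, adjusted p = 0.00691). The other root markers were under the limit for a test and did not all follow it. From Col-0 to gcn5-7 of B, CASP1 went from 0.362 to 0.0168, SHV2 from 0.0466 to 0.0066 and EXPA7 from 0.016 to 0. CASP2 went from 0.0362 to 0.056. In the triple mutant against gcn5-7, PYK10 fell (log2 -1.41, SE 0.305, adjusted p = 0.0163) and 1 of 4 leaf markers rose. In the A double mutant limma called 0 of 4 leaf markers against Col-0, 1 had an unadjusted p under 0.05, and all 4 log2 values were below 0. Their sum ran there from 35873 to 40524 against 45024 to 90703 in Col-0. The part of tissue makeup in the mitochondrial results was not tested.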

How the data were processed

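Per the submitters' processing notes, fastp 0.23.4, HISAT2 2.2.1 and the TAIR10 build were used. Each deposited value is a TMM-scaled TPM, used here as a signal per gene. The sources used here do not name the read counter, its strand and multi-mapping settings, or any poly(A) selection. Tables A and B were analysed apart. Genes with a table mean of at least 1 were tested as log2(value + 1) in limma 3.58.1 (R 4.3.3; trend, robust), all groups of a table in 1 fit, with Benjamini-Hochberg adjustment over all genes tested and calls below 0.05. Reads and counted lengths were recovered as whole multiples of what 1 read is worth: 98.8 to 99.7% of values under 20 reads lay within 0.05 of a whole number, and 390 of 392 nuclear genes came out within 1% of their annotated length. The fit was run on simulated reads with a fixed spread and no replicate shift or gene-length effect, so that run does not check these calls. Rows named with values are the highest by B mean in each role group and the called rows with the 5 highest and 5 lowest fold changes in each comparison. Members, lists and tests were chosen with earlier results of these data known. In B, replicate numbers paired samples, by the correlation of deviations from group means (every pair over 0.1), in all comparisons between 2 groups except gcn5-7 against Col-0. In A no comparison with the double mutant met this (lowest r -0.0334 to 0.0407), and Col-0, with 2 libraries, has too few pairs with gcn5-7 (r 0.573 to 0.859) and arp6-1 (r 0.401 to 0.791). Between gcn5-7 and arp6-1 of A, which were not compared, every pair was over 0.1 (r 0.686 to 0.796). Alternatives are given in the closing section.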

Additional observations from a re-analysis of the deposited data

Results flagged for a closer look

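Among 72 sets of 5 libraries of B (the mitochondrial share and each named row, by genotype), 16 had 1 library far from the other 4. Chance marks about 1 set in 20, but that rate cannot be taken for sets where the other 4 libraries were at 0. This holds for ATMG00590, ATMG01220 and ATMG01380 in nrp1-1 nrp2-2, on 1 read each. It also holds for ATMG00330, ATMG00665, ATMG00780 and ATMG01220 in the triple mutant, on 1 to 4 reads. Replicate 1 of nrp1-1 nrp2-2 stood high for the mitochondrial share (0.0256%), ATMG01390 (59.8), ATMG00160 (1.77), ATMG00180 (0.566), ATMG00220 (1.302) and ATMG00480 (2.58). In the same group replicate 3 stood high for ATMG00590 (0.132) and replicate 5 for ATMG01220 (0.302) and ATMG01380 (0.874). In the triple mutant, replicate 1 stood high for ATMG00180 (0.782), ATMG00330 (3.02), ATMG00665 (16.1), ATMG00780 (2.01) and ATMG01220 (0.259), and replicate 2 for ATMG00220 (1.31). In gcn5-7, replicate 2 stood high for ATMG00590 (9.35).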

How the results depend on the processing

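Leaving out 1 library at a time, the share ratios ranged from 1.00 to 1.40 (gcn5-7) and 0.553 to 0.863 (arp6-1) in A, and for the double mutant from 0.143 to 0.238, 0.114 to 0.192 and 0.198 to 0.349 against Col-0, gcn5-7 and arp6-1. In B they ranged from 0.777 to 0.969 (gcn5-7), 0.156 to 0.267 (nrp1-1 nrp2-2), and for the triple mutant from 0.303 to 0.420, 0.347 to 0.482 and 1.28 to 2.37 against Col-0, gcn5-7 and nrp1-1 nrp2-2. Another sum left out ATMG00020, ATMG01380 and ATMG01390, listed as ribosomal RNA, and rows counted under 90 bases. The short rows are a stand-in, since no transfer RNA is annotated, and ATMG00030 was kept. The ratios moved to 0.358, 0.282 and 0.516 for the A double mutant and 0.508 for nrp1-1 nrp2-2. They moved to 0.844 and 0.760 for the triple mutant against Col-0 and gcn5-7. Without ATMG09450 and ATMG09730, chosen after seeing the data, they were 0.350, 0.277, 0.459, 0.524, 0.890 and 1.01 in that order. With ATMG00020, ATMG01390 and ATMG00030 left out as well, they were 0.304, 0.246, 0.415, 0.323, 0.420 and 0.416 in that order. By recovered reads, also chosen after seeing the data and without ATMG00020, the ratios were 0.483 for nrp1-1 nrp2-2 and 0.859 and 1.01 for the triple mutant. With 1 library left out, calls in A ranged from 0 to 16, 2 to 10 and 0 to 6 for the double mutant against Col-0, gcn5-7 and arp6-1. They ranged in B from 1 to 4 for gcn5-7, 4 to 6 for nrp1-1 nrp2-2, 7 to 8 for the triple mutant against Col-0 and 4 to 5 against gcn5-7.

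With no filter, 24 of 131 members were called in the A double mutant against gcn5-7 and 1 of 131 in the A interaction. The share of all genes called without that filter was 13.5 and 2.19%, in that order. A gene-length correction gave 5 and 2 against gcn5-7 and arp6-1, and ATMG01220 against arp6-1 reversed to a log2 of 0.16. With the replicate block the A double mutant had 15, 21 and 20 calls against Col-0, gcn5-7 and arp6-1, and the A interaction had 9. The share of all genes called was 13.5, 37.9, 49.8 and 24.7%, in that order. The numbers were not shown to pair the double mutant with other groups of A, nor gcn5-7 with Col-0 in B. For B, gcn5-7 against Col-0 had 7 of 21 called with the block, below the 49.8% of all genes called. The triple mutant against gcn5-7 had 9 of 21, where 25.4% of all genes were called. Where the numbers met the pairing rule with Col-0, 7 of 21 fell for nrp1-1 nrp2-2 (1.71% of all genes called). For the triple mutant against Col-0, 8 of 21 fell (9.16% of all genes called). With a term for replicate 1 of Col-0, gcn5-7 and arp6-1, which no label calls a batch and which was chosen with earlier results known, gcn5-7 had 1, the double mutant 14 and 19 against Col-0 and arp6-1, and the interaction 14. A pseudocount of 0.1 gave 2 in gcn5-7 of B, and equal sums gave 8 in the triple mutant against gcn5-7. Replicates 3 to 5 of B gave 1, 3 and 5 for gcn5-7, nrp1-1 nrp2-2 and the triple mutant against Col-0. Equal sums moved the median of all genes in the A double mutant against Col-0 from 0.18 to 0.80 (log2). The causes were not tested. Most members had too few reads to be tested at this depth.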
